A study of Mus musculus with 6 samples.

Results

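The genes described here are the axon guidance ligands and receptors: the semaphorins and plexins, the ephrins and Eph receptors, the Slits with their Robo receptors and srGAP adaptors, the teneurins, and the netrins with their receptors. They were picked by gene symbol alone, with no measured value, and came to 79 of the 20659 genes that could be named on the array, read by 106 probes. The symbol pattern also took in Plxna4os1, a transcript antisense to Plxna4, and Unc5cl, which is no netrin receptor. Gene expression was measured on 6 Agilent arrays of 1 colour, each hybridised with total RNA of mouse liver cells sorted by the surface tetraspanin CD63 and then cultured. The DDC injury group held 3 arrays with cells from adult livers injured with DDC, a compound that disturbs haem synthesis and damages the bile ducts. The no-injury group held 3 arrays with cells from adult livers without that injury. Both groups had been grown in the same stem cell medium, which held serum, HGF, EGF and dexamethasone, so the values are those of cultures. VEGF and bFGF were added to some cultures that the labels identify by numbers and do not tie to samples, and such numbers occur in the names of 2 no-injury files, so this treatment may lie within the no-injury group. The labels give neither strain, age nor sex of the mice, and the design text calls the 6 samples cell lines.

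In the nervous system these families steer growing axons by attraction and repulsion. Semaphorins act through plexins, with neuropilins as co-receptors for most secreted class members. Ephrins are tethered to the cell surface and bind Eph receptor tyrosine kinases on the neighbouring cell, so that both cells can signal. Slits bind Robos such as Robo1 and Robo2, whose cytoplasmic tails recruit srGAP adaptors. Netrins attract through DCC and neogenin and repel through UNC5 receptors, and teneurins are large adhesion proteins that bind latrophilins across cell contacts. Outside the nervous system the same proteins guide vessels, set tissue boundaries and regulate the adhesion and movement of epithelial cells, the liver's bile duct cells among them.

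The start-site windows of 4 genes are shown because, among called genes with a single RefSeq window, these had the largest differences between the groups, Srgap3 and Robo3 higher and Sema5a and Sema4g lower in DDC injury. Each window runs from 250 bases before to 50 bases after the transcript start in the RefSeq table of build GRCm38.p6, 5′ to 3′ on the gene's own strand. Capitals mark every GGGCGG on either strand (read as CCGCCC on the other), the letters of the GC box. The windows lie at chr6:112947217-112947516 on the minus strand for Srgap3, at chr9:37433126-37433425 on the minus strand for Robo3, at chr15:32244563-32244862 on the plus strand for Sema5a and at chr19:44989094-44989393 on the plus strand for Sema4g.
Srgap3: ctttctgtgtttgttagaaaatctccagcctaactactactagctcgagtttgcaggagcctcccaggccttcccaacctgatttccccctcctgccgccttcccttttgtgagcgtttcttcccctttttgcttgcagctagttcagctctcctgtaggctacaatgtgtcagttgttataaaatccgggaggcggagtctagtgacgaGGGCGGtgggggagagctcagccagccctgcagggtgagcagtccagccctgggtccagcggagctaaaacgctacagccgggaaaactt
Robo3: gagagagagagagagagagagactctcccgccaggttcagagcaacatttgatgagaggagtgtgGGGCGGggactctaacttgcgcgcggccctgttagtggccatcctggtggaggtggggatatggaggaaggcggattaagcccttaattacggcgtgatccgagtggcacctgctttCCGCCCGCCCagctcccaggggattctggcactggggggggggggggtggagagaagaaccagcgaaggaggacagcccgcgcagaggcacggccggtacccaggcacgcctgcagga
Sema5a: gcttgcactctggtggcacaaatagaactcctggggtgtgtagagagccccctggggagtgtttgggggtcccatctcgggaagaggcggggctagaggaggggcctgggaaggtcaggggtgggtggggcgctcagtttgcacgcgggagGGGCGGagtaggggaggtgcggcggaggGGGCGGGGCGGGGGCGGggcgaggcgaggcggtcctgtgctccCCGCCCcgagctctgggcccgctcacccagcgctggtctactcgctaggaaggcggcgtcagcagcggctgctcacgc
Sema4g: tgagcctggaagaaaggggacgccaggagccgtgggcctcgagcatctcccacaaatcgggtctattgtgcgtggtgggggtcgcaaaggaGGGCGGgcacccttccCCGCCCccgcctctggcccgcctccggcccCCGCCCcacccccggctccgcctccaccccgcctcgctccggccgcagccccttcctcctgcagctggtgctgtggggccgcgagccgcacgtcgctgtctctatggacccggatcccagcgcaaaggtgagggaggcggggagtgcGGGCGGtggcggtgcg
The GC box occurred 1 time in the Srgap3 window, 3 times in that of Robo3, with 2 matches overlapping, 5 times in that of Sema5a and 4 times in that of Sema4g. Srgap3 alone of these 4 held a TATAAA. The windows of Sema5a and Sema4g held 23 and 30 CpG dinucleotides, against 10 and 17 in those of Srgap3 and Robo3. This order did not hold more widely. Median CpG counts were 17 for windows of guidance genes higher in DDC injury, 14 for those lower and 22 for those not passed. The median was 7 over the windows of all genes. Median GC content was 63.7% over guidance windows and 52.7% over all windows. RefSeq windows matched 68 of the 79 genes, 85 windows in all, and 67.1% of these held a GC box, against 35.7% of the 32851 windows of all genes. The match was found in 14 of 21 windows of genes higher in DDC injury, 13 of 17 windows of genes lower in DDC injury and 26 of 37 windows of genes that did not pass. TATAAA was in 4.71% of the windows of guidance genes and 13.6% of all, the E-box CACGTG in 5.88% and 7.15%, and the AP-1 letters TGANTCA in 3.53% and 7.81%, each searched on both strands. A match describes letters in a window and not a bound site.

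Cells from DDC-injured livers carried much more Srgap3, Tenm4, Robo3, Robo2 and Ntn1 RNA and much less Sema5a, Sema4g and Epha1 RNA than cells from livers without injury. Of the 67 guidance genes that could be tested, 18 were higher and 14 lower in DDC injury (limma, Benjamini-Hochberg adjusted p under 0.05 over 15630 genes), and 35 did not pass. The background was high, because 33.4% of all genes tested were called, 17.6% higher and 15.8% lower, against 47.8% of the guidance genes. At a difference of at least 2-fold, 12 guidance genes were called higher and 10 lower, where 8.59% and 8.6% of all genes were. The median size of the difference, whatever its sign, was 0.82 in log2 units over the tested guidance genes and 0.52 over all genes, while the signed medians were 0.00 and -0.07. All 32 called genes had groups whose arrays did not overlap, as had 16 that did not pass, and this held for 63.1% of all genes. These are bulk RNA values, in which fewer cells of a type and less RNA per cell cannot be told apart.

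Throughout, an array value is a log2 signal from which the 75th percentile of its array was subtracted, a difference is DDC injury minus no injury on that scale with its standard error, and levels of different genes are not compared, because each probe has its own response. A value is called well above background where the scanner software marked the spot so. Over brightly read probes, replicates 1 and 3 of no injury differed by no more than the noise between repeated spots, and they were averaged as 1 sample, so the test sets 3 DDC injury samples beside 2 no-injury samples. With all 3 no-injury arrays counted as 1 sample, 5 guidance genes (Srgap3, Tenm4, Robo3, Ntn1 and Epha6) were called higher and 4 (Sema5a, Sema4g, Ntn4 and Plxnb1) lower, where 2.19% and 1.32% of all genes were. Nothing in the labels says whether samples of a group came from separate animals, so p-values measure only the spread between these samples.

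**Figure D1:**
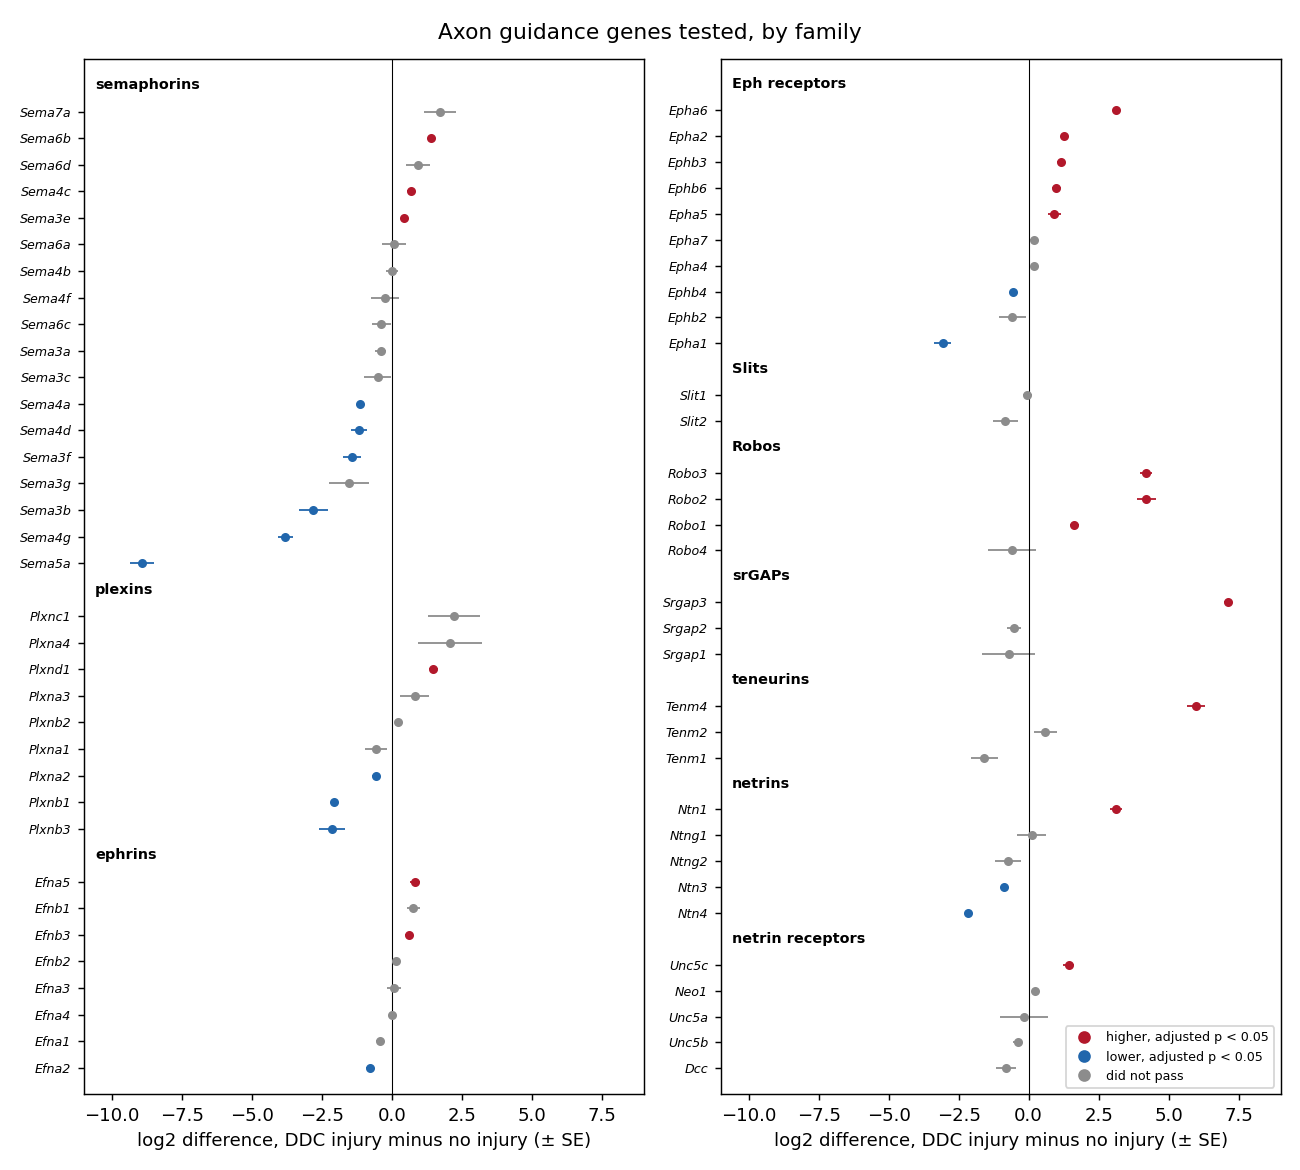
Fitted log2 difference, DDC injury minus no injury, on the x axis for the 67 guidance genes tested, grouped by family down the page, with bars of 1 standard error and colours for the call. The points spread between -8.93 for Sema5a and 7.11 for Srgap3, and called genes of both colours occur among the semaphorins, plexins, ephrins, Eph receptors and netrins.

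By family the calls divided as follows, where 17.6% of all genes tested were higher and 15.8% lower. The families were not tested as sets. Among the semaphorins, 3 of 18 tested were higher and 6 lower, and among the plexins 1 of 9 was higher and 3 were lower. Eph receptors had 5 of 10 higher and 2 lower, where the 5 include Epha5, whose probes were called in opposite directions. Ephrins had 2 of 8 higher and 1 lower, and Robos 3 of 4 higher and none lower. Netrins had 1 of 5 higher and 2 lower, netrin receptors 1 of 5 higher, srGAPs 1 of 3 higher, teneurins 1 of 3 higher, and neither of the 2 tested Slits passed. Ligands as a class were called higher in 6 and lower in 9 of 33, receptors higher in 10 and lower in 5 of 28, and the difference between these splits was not tested. Median differences were 0.55 for Eph receptors, 0.11 for ephrins and, for families whose median changed sign under another scaling or probe rule, -0.39 for semaphorins, -0.73 for netrins, 0.23 for plexins and -0.16 for netrin receptors.

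The 12 genes that were not tested were Epha3, Epha8, Epha10, Ephb1, Slit3, Unc5cl, Unc5d, Ntn5, Plxna4os1, Sema3d, Sema5b and Tenm3. Of these, 6 were below that mark on all arrays (Epha3, Epha10, Unc5cl, Ntn5, Plxna4os1 and Tenm3). At the other end, 51 of the 79 genes were well above background on all 6 arrays.

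**Figure D2:**
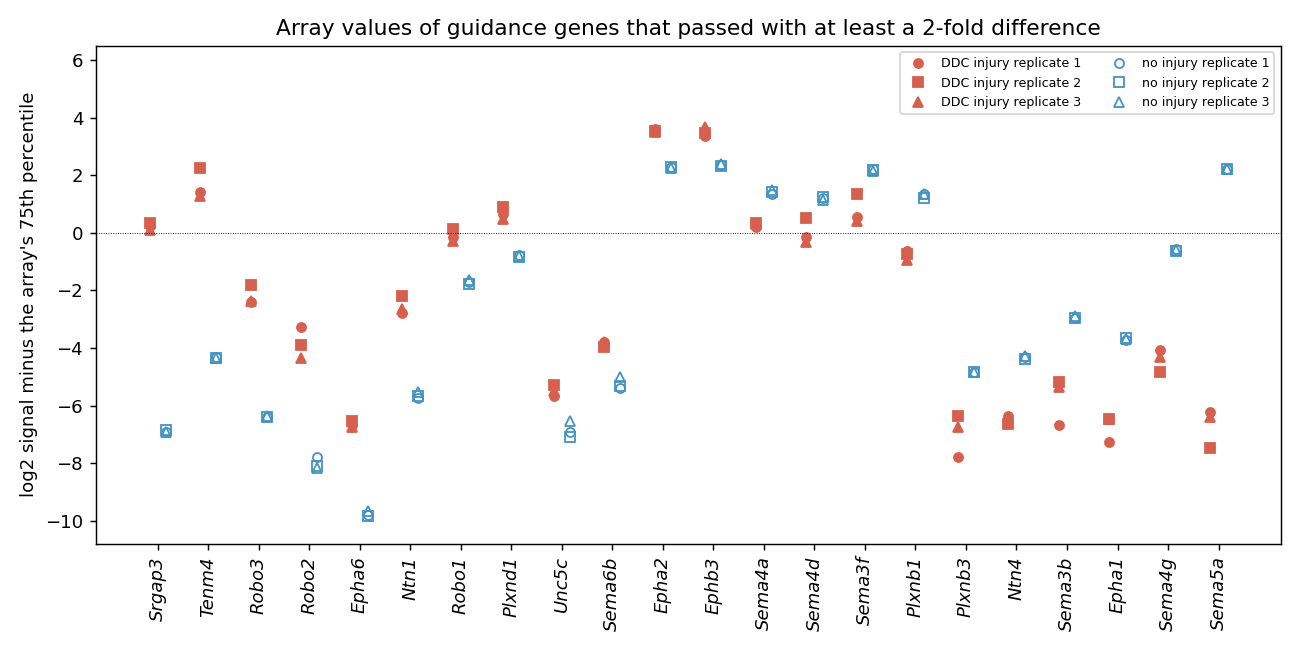
Log2 signal minus the array's 75th percentile on the y axis for the 22 guidance genes that passed with at least a 2-fold difference, ordered by difference along the x axis, with filled red marks for the 3 DDC injury arrays and open blue marks for the 3 no-injury arrays. The groups do not overlap in any of the 22 genes. The SD was wider in DDC injury in 21 of them, when taken over the no-injury samples of the test, in which replicate arrays were averaged. Averaging can narrow the no-injury SD, so this count does not describe the arrays plotted. On the plotted arrays, Sema6b and Unc5c spread more widely in no injury.

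Among the semaphorins, the transmembrane protein Sema5a, which carries thrombospondin repeats, had the largest difference of any guidance gene. Sema5a stood at -6.23, -7.49 and -6.41 on the DDC injury arrays, against 2.21, 2.24 and 2.21 on the no-injury arrays. All DDC injury arrays were low, only 2 of them well above background, while the no-injury arrays were nearly equal. The fitted difference was -8.93 ± 0.43 (limma adjusted p = 0.00116), with 1 DDC injury value not well above background.

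Sema4g, a transmembrane semaphorin of class 4, stood at -4.07, -4.82 and -4.32 in DDC injury, against -0.56, -0.62 and -0.61 in no injury. The gap was several times the spread of either group, at -3.80 ± 0.25 or 13.9-fold lower (limma adjusted p = 0.00222). The secreted Sema3b, which acts through neuropilins, stood at -6.68, -5.19 and -5.37 in DDC injury, against -2.96, -2.95 and -2.90 in no injury. DDC injury replicate 1 was the lowest of the 6 arrays, and the difference was -2.80 ± 0.51 (limma adjusted p = 0.0202). Sema3f, a secreted ligand of neuropilin-2, stood at 0.54, 1.36 and 0.41 in DDC injury, against 2.22, 2.20 and 2.16 in no injury, a difference of -1.42 ± 0.33 (limma adjusted p = 0.0361). DDC injury replicate 2 was nearest to the no-injury arrays without reaching them.

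Sema4d, a ligand of plexin-B1 first known from T cells, stood at -0.13, 0.53 and -0.30 in DDC injury, against 1.21, 1.24 and 1.16 in no injury, and differed by -1.18 ± 0.29 (limma adjusted p = 0.0402). Sema4a, another class 4 member, stood at 0.20, 0.34 and 0.31 in DDC injury, against 1.37, 1.42 and 1.48 in no injury, and differed by -1.14 ± 0.10 (limma adjusted p = 0.0039). In Sema4a both groups were tight, while in Sema4d replicate 2 of DDC injury stood apart from the others. The calls of Sema3b, Sema3f and Sema4d were lost without DDC injury replicate 3 (adjusted p = 0.0555, 0.092 and 0.0943), and those of Sema3f and Sema4d also without DDC injury replicate 1 (adjusted p = 0.0613 and 0.0683). With normexp background correction the differences of Sema5a, Sema4g and Sema3b were -6.67, -3.05 and -1.56.

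The semaphorin with the largest called rise was Sema6b, a transmembrane ligand of class A plexins. Its values were -3.79, -3.97 and -3.80 in DDC injury, against -5.38, -5.31 and -5.01 in no injury. Every DDC injury array was above every no-injury array, by 1.40 ± 0.12 or 2.64-fold (limma adjusted p = 0.00335). Sema4c, a ligand of plexin-B2, and Sema3e, a ligand that binds plexin-D1 without a neuropilin, rose by less than 2-fold, with differences of 0.68 (limma adjusted p = 0.0198) and 0.44 (limma adjusted p = 0.0346). Sema4c lost its call with normexp (0.45, adjusted p = 0.101) and in the authors' values (0.30, adjusted p = 0.187), and Sema3e without DDC injury replicate 1 or 3 (adjusted p = 0.0516 and 0.0737). The 9 tested semaphorins that did not pass include Sema3g (limma adjusted p = 0.175), which was well above background on all no-injury arrays and no DDC injury array. Its signals give only a bound, at least 1.13-fold lower in DDC injury. With normexp its difference was 0.009 (adjusted p = 0.987), so its direction is unsettled. The other semaphorins that did not pass ranged between -0.50 for Sema3c and 1.71 for the membrane-anchored Sema7a (limma adjusted p = 0.483 and 0.0875). Sema3a, the classical repellent of sensory axons, had a difference of -0.40.

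Of the plexins, the receptors of semaphorins, Plxnb1 fell most clearly. Plxnb1 stood at -0.64, -0.74 and -0.94 in DDC injury, against 1.34, 1.23 and 1.35 in no injury. The groups lay far apart beside their spread, with a difference of -2.06 ± 0.13, 4.17-fold lower in DDC injury (limma adjusted p = 0.00208). Plxnb3, a receptor for semaphorin-5A, stood at -7.78, -6.36 and -6.74 in DDC injury, where 2 of 3 arrays were well above background, against -4.83, -4.84 and -4.84 in no injury. The difference was -2.12 ± 0.46 (limma adjusted p = 0.0311), and -0.61 with normexp, where it did not pass. Plxna2 fell by 0.58 on the log2 scale (limma adjusted p = 0.0285). Both calls were lost without DDC injury replicate 3 (adjusted p = 0.0813 for Plxnb3 and 0.0794 for Plxna2).

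Plxnd1, a receptor with a known part in vessel patterning, was the only plexin called higher. Its values were 0.66, 0.90 and 0.49 in DDC injury, against -0.77, -0.82 and -0.79 in no injury, and the difference was 1.48 ± 0.16, 2.79-fold higher (limma adjusted p = 0.00566). Plxnb2 was at 4.91, 5.18 and 5.08 in DDC injury, against 4.85, 4.82 and 4.84 in no injury. Its arrays did not overlap, but the difference of 0.23 did not pass (limma adjusted p = 0.226). Plxna4 and Plxnc1 had larger differences, of 2.09 ± 1.14 and 2.21 ± 0.93, with a wider spread, and did not pass (limma adjusted p = 0.235 and 0.145).

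Of the 10 Eph receptors tested, 7 were past the threshold, where 33.4% of all genes were. Epha5, with probes called in opposite directions, was among the 7. Epha2, a receptor of epithelial cells, stood at 3.62, 3.54 and 3.51 in DDC injury, against 2.30, 2.29 and 2.26 in no injury. Ephb3, which positions epithelial cells in the gut, stood at 3.36, 3.49 and 3.68 in DDC injury, against 2.37, 2.34 and 2.39 in no injury. Both genes were read far above background in both groups, and both rose, Epha2 by 1.27 ± 0.10 or 2.42-fold and Ephb3 by 1.15 ± 0.13 or 2.22-fold (limma adjusted p = 0.00272 and 0.00716). Ephb6, a family member without kinase activity, rose by 0.99 (limma adjusted p = 0.0127).

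Epha6 stood at -6.67, -6.53 and -6.76 in DDC injury, against -9.80, -9.85 and -9.65 in no injury, where it was not well above background on any array. It was therefore at least 2.00-fold higher in DDC injury, with a fitted difference of 3.13 ± 0.12 (limma adjusted p = 0.000782), which was 0.65 and did not pass with normexp. Such a fold is the DDC injury mean over, per no-injury array, the higher of the probe's own signal and the dimmest signal that was still well above background.

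Epha1 fell, with -7.28, -6.46 and -6.48 in DDC injury, against -3.72, -3.64 and -3.68 in no injury. The difference was -3.07 ± 0.30, 8.39-fold lower (limma adjusted p = 0.00505), and -1.15 with normexp. Ephb4, the venous partner of ephrin-B2, fell by 0.55 on the log2 scale (limma adjusted p = 0.031), a call lost without DDC injury replicate 1 or 3 (adjusted p = 0.0506 and 0.0853), with normexp (-0.34, adjusted p = 0.102) and in the authors' values (-0.31, adjusted p = 0.112). Epha4, Epha7 and Ephb2 did not pass, with differences of 0.19, 0.19 and -0.58.

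None of the 8 ephrins, the ligands of these receptors, differed by 2-fold. Efna5 and Efnb3 rose by 0.83 and 0.62 on the log2 scale (limma adjusted p = 0.0248 and 0.0367), and Efna2 fell by 0.78 (limma adjusted p = 0.0234). The call of Efna2 was lost with normexp (-0.16, adjusted p = 0.578), quantile normalization (-0.48, adjusted p = 0.163) and in the authors' values (-0.26, adjusted p = 0.228), and those of Efna2 and Efna5 without DDC injury replicate 3 (adjusted p = 0.0757 and 0.0726). Efnb3 lost its call without DDC injury replicate 2 (adjusted p = 0.0646). Efnb1 had a difference of 0.77 and Efna1 of -0.44, both with non-overlapping arrays and neither past the threshold (limma adjusted p = 0.058 and 0.0552). Efnb2, Efna3 and Efna4 had differences of 0.14, 0.08 and -0.00.

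In the Slit and Robo pathway 3 of 4 Robos and 1 of 3 srGAPs were higher, where 17.6% of all genes were. Robo4 and the tested Slits did not pass. Srgap3, a GTPase-activating protein that bends membranes and binds Robo tails, stood at 0.24, 0.35 and 0.11 in DDC injury, against -6.93, -6.84 and -6.91 in no injury. The spread within each group was a small part of the gap, and the difference was 7.11 ± 0.12, 138-fold higher in DDC injury (limma adjusted p = 0.000588). Its relatives Srgap1 and Srgap2 had differences of -0.71 and -0.52 and did not pass (limma adjusted p = 0.613 and 0.162).

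Robo3, a receptor of commissural axons, stood at -2.39, -1.82 and -2.35 in DDC injury, against -6.40, -6.40 and -6.37 in no injury. Robo2 stood at -3.27, -3.91 and -4.35 in DDC injury, against -7.81, -8.10 and -8.18 in no injury, where it was not well above background on any array. Robo1 stood at -0.13, 0.15 and -0.28 in DDC injury, against -1.70, -1.76 and -1.65 in no injury. All 3 receptors were higher on every DDC injury array, Robo3 18.5-fold (difference 4.21 ± 0.22), Robo2 at least 14.1-fold (fitted difference 4.20 ± 0.35) and Robo1 3.10-fold (difference 1.63 ± 0.16), with limma adjusted p = 0.00132, 0.00335 and 0.00525. Robo4, the endothelial Robo, had a difference of -0.59 and did not pass (limma adjusted p = 0.636).

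Slit1 and Slit2 had differences of -0.05 and -0.83 (limma adjusted p = 0.85 and 0.218), and Slit3 was well above background on 1 array of each group. With normexp the differences of Srgap3, Robo3 and Robo2 were 4.89, 2.49 and 1.69. The direction of Srgap3, Robo1, Robo2 and Robo3 was the same in the authors' normalized values, where Srgap3, Robo3 and Robo2 differed by 5.56, 3.11 and 2.27 in the same limma fit.

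Tenm4, a teneurin with roles in myelination, was the second largest rise. It stood at 1.41, 2.24 and 1.29 in DDC injury, against -4.30, -4.34 and -4.35 in no injury. The difference was 5.98 ± 0.33, 63.0-fold higher (limma adjusted p = 0.00153), and 5.35 with normexp. Tenm1 and Tenm2 had differences of -1.59 and 0.59 and did not pass (limma adjusted p = 0.0682 and 0.334).

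Among the netrins, Ntn1, the diffusible attractant of commissural axons, rose and Ntn4, a netrin of basement membranes that binds laminin, fell. Ntn1 stood at -2.79, -2.18 and -2.63 in DDC injury, against -5.73, -5.68 and -5.54 in no injury, a difference of 3.12 ± 0.21 or 8.69-fold higher (limma adjusted p = 0.00232). Ntn4 stood at -6.38, -6.65 and -6.45 in DDC injury, against -4.31, -4.37 and -4.28 in no injury, a difference of -2.16 ± 0.13 or 4.47-fold lower (limma adjusted p = 0.00173). The 2 netrins thus moved in opposite directions, each with separate and tight groups. Ntn3 fell by 0.88 on the log2 scale (limma adjusted p = 0.00602), and the membrane-anchored Ntng1 and Ntng2 did not pass. With normexp the differences of Ntn1 and Ntn4 were 2.08 and -0.82, and Ntn3 lost its call there (-0.45, adjusted p = 0.0545) and with quantile normalization (-0.58, adjusted p = 0.0616).

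Of the netrin receptors, only Unc5c passed. This repulsive receptor stood at -5.69, -5.28 and -5.49 in DDC injury, against -6.92, -7.11 and -6.55 in no injury, and was 2.71-fold higher (difference 1.44 ± 0.19, limma adjusted p = 0.00973), but did not pass with normexp, where its difference was 0.58. Neo1, Unc5b and Unc5a had differences of 0.21, -0.39 and -0.16. Dcc, the attractive receptor for netrin-1, stood at 0.98, 2.03 and 1.13 in DDC injury, against 2.23, 2.18 and 2.20 in no injury. Its arrays did not overlap, and the difference of -0.82 did not pass (limma adjusted p = 0.16).

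Set side by side, some ligands and their known receptors moved the same way. Sema5a and Plxnb3 were both lower, as were Sema4d and Plxnb1, while Sema3e and Plxnd1 were both higher, as were Ntn1 and Unc5c. Other pairs did not share a direction. Ntn1 was higher while Dcc, Neo1, Unc5a and Unc5b did not pass, and Sema6b was higher while the class A plexin Plxna2 was lower. Sema4c was higher while Plxnb2 did not pass, and Sema3f was lower while its co-receptor Nrp2 was higher. Robo1 and Robo2 were higher while no tested Slit passed. No test was made over pairs.

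The co-receptors, binding partners and intracellular effectors of these pathways moved about as often as all genes did. Of 118 listed genes, 105 were tested, and 16 were called higher and 20 lower, which is 34.3% against 33.4% of all genes. Gpc1, a glypican that binds Slits, had the largest rise, with -0.67, -0.91 and -0.52 in DDC injury, against -6.68, -6.36 and -6.54 in no injury (difference 5.79 ± 0.17, limma adjusted p = 0.000615). Nrp2, the neuropilin that binds Sema3f, stood at 1.75, 2.13 and 1.32 in DDC injury, against 0.11, 0.14 and 0.12 in no injury (difference 1.61 ± 0.27, limma adjusted p = 0.016). Nrp1, the neuropilin for Sema3a, had a difference of -0.49 and did not pass (limma adjusted p = 0.303). Rnd1, a GTPase that binds plexins, and Siah2, a ubiquitin ligase, rose by 2.15 and 1.22 on the log2 scale. Grip1 and Anks1b, adaptors of ephrin and Eph signalling, were well above background on none of the no-injury arrays and were at least 3.79-fold and at least 4.38-fold higher in DDC injury.

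Flrt2, the partner with the largest fall, and Flrt3 are adhesion proteins that bind both UNC5 receptors and latrophilins, with differences of -5.36 ± 0.93 and -2.44 ± 0.23 (limma adjusted p = 0.0177 and 0.00431). Flrt2 stood at -6.23, -8.90 and -6.43 in DDC injury, against -1.69, -1.95 and -1.73 in no injury. In Flrt2 and Mical1, 1 DDC injury value was not well above background. Mical1, an actin-oxidizing enzyme downstream of plexins, and Ngef, the guanine exchange factor ephexin of EphA receptors, fell by 3.83 and 2.61 on the log2 scale (limma adjusted p = 0.00826 and 0.00102). Sdcbp, a scaffold that binds ephrin-B tails, and Vav2, an exchange factor recruited by Eph receptors, fell by 1.34 and 1.33. With the 3 no-injury arrays counted as 1 sample, Gpc1, Grip1, Anks1b and Ngef alone of these partners passed, and Siah2 also missed the threshold without DDC injury replicate 3 (adjusted p = 0.0507). With normexp the differences of Gpc1, Flrt2 and Mical1 were 3.97, -2.71 and -1.92, and those of Grip1 and Anks1b 0.75 and 0.92. The count by pathway was 2 higher and 5 lower of 22 for semaphorin partners, 4 and 5 of 24 for ephrin partners, 5 and 3 of 23 for Slit and netrin partners, 1 and 3 of 9 for teneurin partners, and 4 and 4 of 27 for shared cytoskeletal effectors.

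Several guidance genes were read by more than 1 probe, and these did not always give the same answer. Each gene above is represented by its brightest probe, and 23 of the 79 genes had several. All tested probes of Srgap3 (7.11, 3.55 and 3.40), Robo2 (4.20 and 3.87) and Plxnd1 (1.48 and 1.26) were called higher in a fit over 20436 probes, in which 35% of probes were called. The second probe of Tenm4 had a difference of 0.75 ± 0.67 and did not pass (limma adjusted p = 0.443). Epha5, called higher by 0.92 (limma adjusted p = 0.0484 in the gene fit), had a second probe that was lower by -1.84 (limma adjusted p = 0.00424), so its direction is unsettled. Dcc had dim probes that were higher by 2.18 and 2.60 (limma adjusted p = 0.00448 and 0.00269) beside the brightest probe's -0.82, and the second probes of Efnb2 and Sema6d were called at 1.34 and -1.22. Both probes of Ephb4 were lower.

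**Figure D3:**
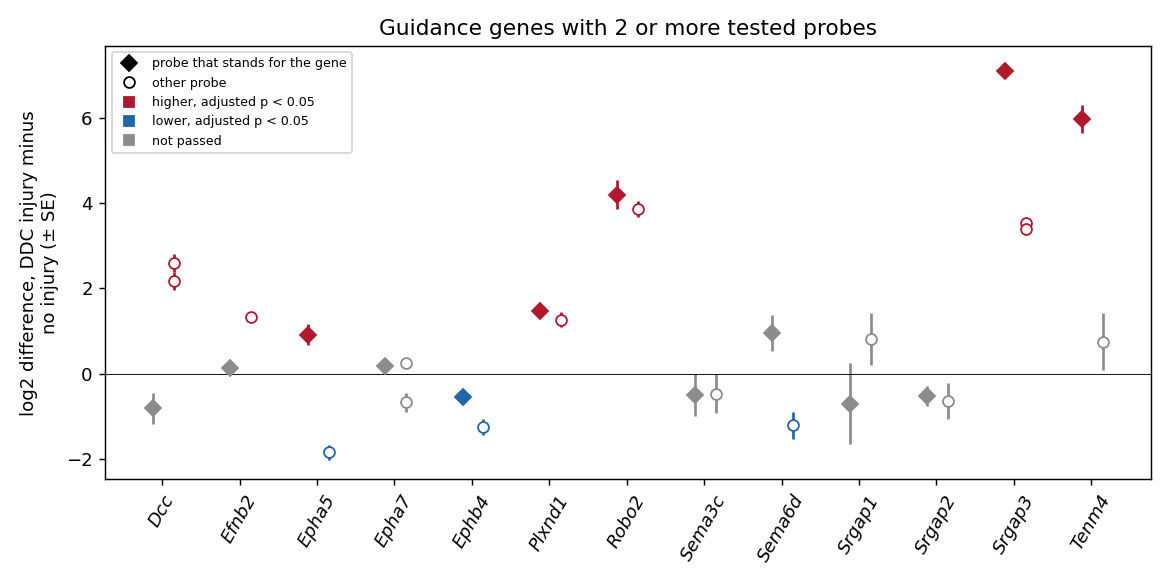
Log2 difference, DDC injury minus no injury, with bars of 1 standard error on the y axis for every tested probe of the guidance genes with at least 2 tested probes, named on the x axis. Diamonds stand for the brightest probe and open circles for the others, and Epha5, Epha7, Dcc, Sema6d and Srgap1 have probes on both sides of 0.

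Many neuron markers, and a few guidance genes, were higher on DDC injury replicate 1 than on the other arrays of its group. Of 29 neuron markers with a named probe, 13 were at least 1 log2 unit above the mean of DDC injury replicates 2 and 3, and 4 were that far below, with a median of 0.76. Over all tested genes 2.64% were that far above and 16.3% that far below. The 2 sets are unlike, because only 18 of the 29 neuron markers were tested. The 13 include untested genes such as Stmn2, well above background on 1 array alone, a pattern that the tested genes leave out. Stmn2, a tubulin regulator of neurons, stood at -1.83, -7.85 and -8.05 in DDC injury, against -7.19, -7.15 and -7.79 in no injury. Gap43, a protein of growth cones, stood at -2.36 on DDC injury replicate 1, and at -6.57 and -5.46 on the other DDC injury arrays. Neuron markers well above background numbered 23, 15 and 18 on the DDC injury arrays, against 17, 18 and 18 on the no-injury arrays, while their summed linear level, in units of the 75th percentile, was 3.99, 2.97 and 3.62 in DDC injury, against 4.79, 5.63 and 5.17 in no injury. Slc17a7 and Calb1, markers of subsets of neurons, and the glial markers Opalin and Gjb6 were well above background on none of the 6 arrays. Some glial markers were nevertheless higher on that array. Fabp7 of radial glia stood at -0.19, -7.80 and -8.15 in DDC injury, against -7.36, -7.20 and -7.01 in no injury. Slc1a3, an astrocyte glutamate transporter, stood at -4.15, -8.88 and -7.98 in DDC injury and was well above background on no other array. Olig1, of the oligodendrocyte lineage, stood at -5.52, -9.25 and -9.80 in DDC injury, again well above background on that array alone. In all, 2 of 12 astrocyte markers and 2 of 15 oligodendrocyte markers were at least 1 unit above the other DDC injury arrays, while 2 and 5 were that far below. Summed levels were 3.44, 3.70 and 3.28 for astrocyte markers in DDC injury, against 3.63, 4.04 and 3.67 in no injury. Those of oligodendrocyte markers were 8.14, 14.9 and 12.3 in DDC injury, against 34.6, 36.2 and 34.4 in no injury. Most of the oligodendrocyte sum in no injury came from Trf and Mbp, both called lower in DDC injury. No other oligodendrocyte marker was called, so the fall in this sum does not describe the list.

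The same array was low in other lists. Endothelial markers had a median of -2.27 there against replicates 2 and 3, with 10 of 14 at least 1 unit below, and markers of stellate cells and fibroblasts a median of -2.07, with 12 of 15 below. Their summed levels were 4.44, 6.80 and 4.77 for endothelial markers in DDC injury, against 3.19, 3.17 and 3.47 in no injury, and 0.24, 0.74 and 1.39 for stellate and fibroblast markers in DDC injury, against 0.57, 0.75 and 0.81 in no injury. Most of the endothelial sum in DDC injury came from Ptprb, the only endothelial marker called higher (difference 1.56). Flt1 was called lower (difference -1.37) and no other endothelial marker was called, so the sum does not describe the list. Medians were -0.13 for astrocyte, -0.25 for oligodendrocyte, -0.48 for Schwann and neural crest, 0.03 for cholangiocyte, -1.10 for hepatocyte, -1.43 for macrophage and leukocyte, and -0.30 for mesothelial markers.

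**Figure D4:**
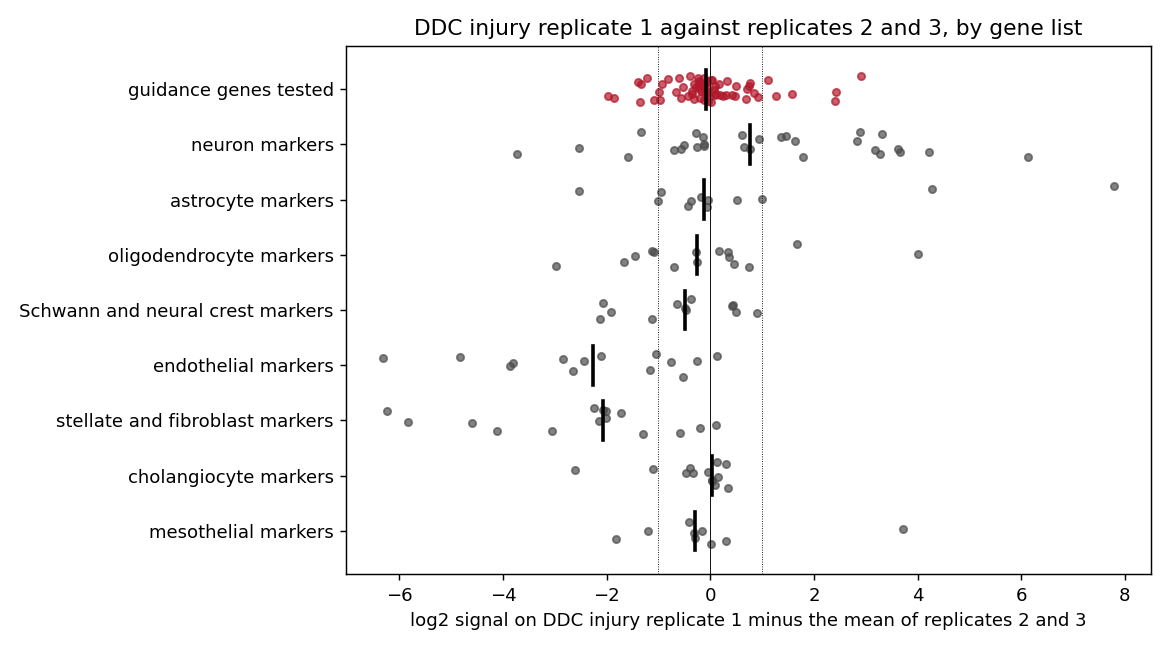
Log2 signal on DDC injury replicate 1 minus the mean of DDC injury replicates 2 and 3 on the x axis, 1 point for each gene, with gene lists down the page, black bars at list medians and dotted lines at 1 unit either way. The guidance genes centre on -0.07 with tails both ways, the neuron markers have their median at 0.76, and the endothelial and the stellate and fibroblast markers lie mostly below -1.

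Of the 67 tested guidance genes, 6 were at least 1 unit higher on DDC injury replicate 1 than the mean of the others, 8.96% against 2.64% of all genes, and 7 were that far lower, 10.4% against 16.3%. The 6 were Plxna4 (by 2.90), Srgap1 (2.42), Unc5a (2.40), Plxnc1 (1.57), Tenm1 (1.27) and Sema6a (1.11), none of them called. Plxna4 stood at -2.996, -6.59 and -5.21 in DDC injury, against -7.06, -7.35 and -6.31 in no injury. The 7 lower were Robo4, Sema3g, Sema3b, Ephb2, Ntng1, Plxnb3 and Sema6d, between -1.97 and -1.09. Untested Ephb1, Sema5b and Tenm3 were also higher there, by 3.01, 1.26 and 1.12. Untested Slit3, Unc5d and Ntn5 were lower there, with differences of -3.14, -2.05 and -1.41. Tenm3 and Ntn5 were well above background on no array. Over all 79 guidance genes, 9 were at least 1 unit higher on this array and 10 at least 1 unit lower.

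The largest differences did not rest on this array. With it left out, Srgap3, Tenm4, Robo3 and Ntn1 differed by 7.11, 6.10, 4.31 and 3.25, and Sema5a and Sema4g by -9.17 and -3.97. Without DDC injury replicate 1, 18 genes were again called higher and 14 lower, 17 and 11 of them the same genes, where 18.2% and 17.9% of all genes were called. Sema3e, Sema3f, Sema4d and Ephb4 were lost. Sema6d was gained at 1.31, and Unc5a at -0.96, Tenm1 at -2.01 and Sema3a at -0.54 (limma adjusted p = 0.019, 0.0128, 0.00642 and 0.0458). The part of the neuronal markers in the other differences was not tested. Without replicate 2 instead, 19 guidance genes were higher and 20 lower, where 24.2% and 20.3% of all genes were, and without replicate 3, 15 were higher and 7 lower, where 11% and 9.65% were. Leaving out replicate 1 also gives the comparison within the 1 scan day that held both groups, since it was scanned alone on another day.

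The arrays carried 43020 spots apart from controls, of which 65.0% to 74.8% were well above background and none was saturated, and their 75th percentiles lay between 1441 and 2271 intensity units. DDC injury replicates 2 and 3 shared a scan time, as did the 3 no-injury arrays, so scan time and group cannot be told apart. The labelled marker Cd63 was high in both groups, 3.80 ± 0.23 in DDC injury (SD, n = 3 samples) and 3.91 ± 0.04 in no injury (SD, n = 2 samples, replicates 1 and 3 averaged). It did not pass (difference -0.11, limma adjusted p = 0.66). The duct and epithelial genes Krt19 and Hnf4a averaged 3.79 and 3.63 in DDC injury, against 3.42 and 3.73 in no injury, and Msln of mesothelium 4.67 and 4.52. Epcam and Alb, markers of duct cells and hepatocytes, were lower in DDC injury, by differences of -2.58 and -6.14.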

How the data were processed

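Cultured CD63+ mouse liver cells were measured on 6 one-colour arrays, 3 of DDC injury and 3 of no injury. Per the file headers, Feature Extraction 11.0.1.1 gave the spot values, and its processed intensity is background-subtracted and detrended. The authors' deposited table holds log2 values with shared quantiles, and the submitters' processing notes name limma. Its starting column is not stated.

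Probes were named by transcript accession through RefSeq (GRCm38.p6): 27234 of 39429 had 1 symbol, 0 several and 12195 none. Values were log2 processed signals, each less its array's 75th percentile, without spots marked as outliers, with repeated spots averaged. A gene was its brightest probe, tested if 3 or more of 6 arrays were well above background, with 2 values per group. The comparison used limma (version 3.58.1, R 4.3.3; lmFit, eBayes, two-sided, adjusted over all genes, threshold 0.05), tested on simulated data. Over 138 bright probes printed repeatedly, replicates 1 and 3 of no injury differed by no more than spot noise (chi-square p = 0.148) but did over all 277 (p = 5.27e-11), while the other no-injury pairs differed in both. They were averaged. Members, gene lists and tests were chosen with earlier results of these data known. Array values are printed for called genes with a log2 difference of at least 1 and their pairs, up to 6 partners each way were eligible for naming, and other members are given by counts and ranges. The number of arrays limits the precision.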

Additional observations from a re-analysis of the deposited data

How the results depend on the processing

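The 32 called guidance genes kept their direction under every scaling, filter and left-out array tried, except Epha5, which was -0.46 when its probes were averaged (adjusted p = 0.0693). Of the 32, 17 passed under every alternative that keeps at least 2 no-injury samples, and 8 (Ntn1, Ntn4, Plxnb1, Robo3, Sema4g, Sema5a, Srgap3 and Tenm4) under all, counting the alternatives in which each was tested. With the 3 no-injury arrays averaged, 5 guidance genes were higher and 4 lower, against 18 and 14, and of the partners 3 and 1, against 16 and 20. Array weights gave 22 guidance genes lower and 33 partners higher, where 4176 of 15630 genes were lower and 4397 higher, against 2463 and 2757, and 6 separate arrays gave 31 partners higher, where 3849 genes were. Leaving out 1 array while keeping 2 no-injury samples gave 15 to 19 guidance genes higher and 7 to 20 lower. For partners it gave 11 to 25 higher and 15 to 25 lower. Of all 15630 genes, 1719 to 3782 were then higher and 1509 to 3177 lower. Without no-injury replicate 2, which leaves 1 sample in that group, assumed to vary like the other, fewer were called in each of these sets. The 7 lower guidance genes came without DDC injury replicate 3, where 9.65% of all genes were lower. The cause of these shifts was not tested beyond the smaller number of samples.

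Family medians moved. Semaphorins, at -0.39, were at -0.10 with quantile normalization, 0.0071 with normexp and the 75th percentile, -0.025 with normexp and quantiles, and -0.050 in the authors' values. Plexins, at 0.23, were at -0.0049, 0.0026 and -0.0014 with quantiles, normexp with quantiles and the authors' values, and at -0.17 over genes above background on all 6 arrays. Ephrins, at 0.11, were at 0.32 with quantiles and 0.66 with the mean of probes. Eph receptors, at 0.55, were at 0.37 and 0.28 with the normexp settings, 0.19 over genes above background on all 6 arrays and 0.053 with the mean of probes. Netrins, at -0.73, were at 0.070 and -0.091 with the normexp settings and -0.17 in the authors' values, and netrin receptors, at -0.16, at 0.17 with normexp and the 75th percentile and 0.21 with the mean of probes. Leaving out 1 array gave -0.43 to -0.38 for semaphorins, 0.17 to 0.30 for plexins, 0.06 to 0.22 for ephrins, 0.51 to 0.58 for Eph receptors, -0.85 to -0.41 for netrins and -0.32 to 0.20 for netrin receptors. Normexp with the 75th percentile moved the median of all genes to 0.07, against -0.07.

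With the replicate number as a block, 19 guidance genes were higher and 14 lower, where 2838 and 2725 of 15630 genes were. Same-numbered arrays correlated in their deviations at 0.117, 0.018 and 0.121, and differently numbered arrays at -0.145 to 0.019. The labels give same-numbered samples only a shared number, and whether they were paired was not tested.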
